A study of Mus musculus with 12 samples.

Results

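The 10 genes described here encode lysosomal cathepsins, and they were chosen by symbol (Ctsa, Ctsb, Ctsd, Ctsf, Ctsh, Ctsk, Ctsl, Ctso, Ctss and Ctsz) from the 24221 rows of the authors' deposited table. The granule proteases of neutrophils were left out of the set by its definition. The table compares mouse acute myeloid leukaemia cells of strain C57BL/6 that carry the MLL-AF9 fusion and loxP-flanked Riok2 alleles (Riok2fl/fl). One group received hydroxytamoxifen (OHT, 3 samples) and the other its vehicle ethanol (EtOH, 3 samples), and RNA was collected at 72 h. OHT activates Cre recombinases fused to an oestrogen receptor domain, while the sources used here give neither the Cre driver of these cells nor whether replicates are separate cultures or clones. Every sample of both groups carries the floxed alleles and the fusion, so effects of OHT itself and of Riok2 loss cannot be told apart. A further 6 samples of the series, MLL-AF9 cells with the RIOK2 inhibitor at 1 µM or with DMSO, are not analysed here.

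Cathepsins are the proteases of the acid compartments of the cell. They are made as inactive precursors, carried to the lysosome largely by mannose 6-phosphate receptors and activated there at low pH. Most belong to the papain-like cysteine proteases, held in check by cystatins and stefins, and others are aspartic or serine enzymes. Phagocytes are rich in them, and they use them to digest engulfed material and to prepare antigens for MHC class II.

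The targeted gene gave the direction of the table. Riok2, which encodes an atypical kinase of small ribosomal subunit maturation, stood at -3.60 ± 0.20 on the log2 scale (SE, adjusted p = 7.81e-69) per the authors' deposited table. The numerator is not named there, and reading every fold as OHT over EtOH rests on this value. The 6 libraries recovered from low base means had size factors of 1.88, 1.01 and 0.697 on one side and 1.11, 0.870 and 0.783 on the other, and base means summed to 20307732 normalised reads over all genes.

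All 10 genes had a positive log2 fold change, and 9 of them rose in OHT at the authors' adjusted p-value under 0.05, a call made for 25.5% of the 13814 genes tested in this direction. None of the 10 fell, and 23.4% of the tested genes did. Ctsz, a carboxypeptidase, was the member without a call. The median log2 fold change of the 10 was 1.83 (range 0.37 to 2.93), against a median of 0.05 over all genes tested. In the 9 that rose, the level in OHT was 2.22 to 7.63 times that in EtOH. All 9 had an adjusted p-value under 0.05 together with a log2 fold change of at least 1 in that direction, a call made for 13.6% of the genes tested. With a Bonferroni correction the count was 4 (Ctsa, Ctsd, Ctsh and Ctss), a call made for 11.1% of the genes tested. Counting both directions, 48.9% of the genes tested were called. The base mean was 100 or more in 9 of the 10, and of the 9888 tested genes at that depth 29.2% rose.

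**Figure D1:**
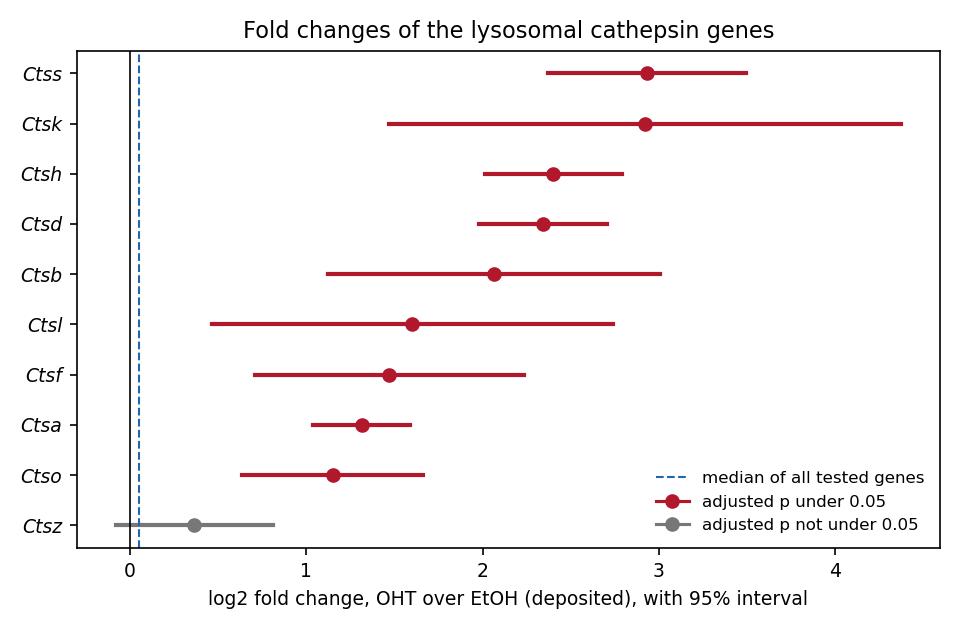
Log2 fold change of each cathepsin gene, OHT over EtOH, in the authors' deposited table (points), with 95% intervals from its standard errors (lines); red marks genes with an adjusted p-value under 0.05, grey the 1 gene without, and the dashed line the median of all 13814 tested genes (0.05). Ctsz is the gene whose interval spans 0 (-0.08 to 0.81).

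Promoter sequences are shown for the 5 members in which a searched motif was found, since nearly all members rose. The motif TCACGTGA, an E-box with the flanks preferred by the MiT/TFE transcription factors that act on lysosomal genes, was searched with its shorter core CACGTG, which it contains. GAGGAAGT, a purine-rich ETS site of the kind bound by the myeloid factor PU.1, was searched on both strands, and the E-box motifs read the same on both. Of the 10 members, 8 had an entry in the RefSeq promoter table (GRCm38.p6, 250 bases before to 50 after each annotated start). Ctsb and Ctsh are the members with no entry. In the lines that follow, each 5′ to 3′ on the strand of the gene, capitals mark every match. They are chr2:164833523-164833822 (plus strand) for Ctsa, chr7:142387778-142388077 (minus) for Ctsd, chr19:4854915-4855214 (plus) for Ctsf, chr13:64370471-64370770 (minus) for Ctsl and chr3:95526536-95526835 (plus) for Ctss.
Ctsa: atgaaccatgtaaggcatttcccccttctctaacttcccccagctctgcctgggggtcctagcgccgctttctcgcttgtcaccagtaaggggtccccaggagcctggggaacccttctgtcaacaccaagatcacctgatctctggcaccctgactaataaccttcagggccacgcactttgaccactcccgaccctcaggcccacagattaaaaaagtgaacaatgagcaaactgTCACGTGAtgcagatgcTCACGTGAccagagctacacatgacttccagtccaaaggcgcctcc
Ctsd: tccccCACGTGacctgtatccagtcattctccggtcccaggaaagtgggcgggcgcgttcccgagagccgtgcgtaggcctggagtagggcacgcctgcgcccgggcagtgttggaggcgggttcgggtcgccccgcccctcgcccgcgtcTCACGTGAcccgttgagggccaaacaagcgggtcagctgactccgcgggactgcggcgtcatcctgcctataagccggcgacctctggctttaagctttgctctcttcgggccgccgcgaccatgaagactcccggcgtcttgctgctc
Ctsf: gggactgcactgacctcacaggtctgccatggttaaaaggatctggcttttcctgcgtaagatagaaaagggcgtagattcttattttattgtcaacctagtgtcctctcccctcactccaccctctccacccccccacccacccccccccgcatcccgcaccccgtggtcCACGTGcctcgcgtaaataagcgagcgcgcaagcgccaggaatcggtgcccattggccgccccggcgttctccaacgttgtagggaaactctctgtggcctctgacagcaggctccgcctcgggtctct
Ctsl: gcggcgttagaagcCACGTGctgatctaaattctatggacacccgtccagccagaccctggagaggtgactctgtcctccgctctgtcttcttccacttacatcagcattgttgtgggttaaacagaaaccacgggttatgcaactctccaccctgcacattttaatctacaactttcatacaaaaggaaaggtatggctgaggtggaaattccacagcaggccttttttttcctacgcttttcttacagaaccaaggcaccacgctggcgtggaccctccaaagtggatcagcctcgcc
Ctss: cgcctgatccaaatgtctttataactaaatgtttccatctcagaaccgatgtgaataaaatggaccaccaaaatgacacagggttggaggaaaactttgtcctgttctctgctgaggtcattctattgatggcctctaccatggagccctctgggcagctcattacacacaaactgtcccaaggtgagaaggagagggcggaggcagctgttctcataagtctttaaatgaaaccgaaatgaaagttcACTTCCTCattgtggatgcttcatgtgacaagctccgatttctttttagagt

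The Ctsa promoter holds TCACGTGA on either side of the start site, at bases -13 to -6 and 4 to 11, counted from 0 at the annotated start. In the Ctsd promoter the same motif lies at -99 to -92, with a further CACGTG core at -245 to -240. TCACGTGA occurs in 0.974% of all 32851 promoters of the table. The core alone lies at -79 to -74 in Ctsf and at -236 to -231 in Ctsl, and 7.15% of all promoters have it. GAGGAAGT, present in 3.20%, lies across the start site of Ctss on the opposite strand, at -2 to 5. Ctsk, Ctso and Ctsz, and a second annotated start of Ctsa, had no match to these letters in this window. All positions are counted from the RefSeq start of each window, and the GENCODE M21 gene coordinates differ from these starts. By GENCODE, the Ctsl window, the Ctsa window shown and the TCACGTGA of Ctsd lie inside the gene. The Ctsa start without a match is the one at the 5′ end of the GENCODE gene. A match describes the sequence and shows no binding.

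The authors' deposited table has no column per sample, so levels are given for each group as implied by the base mean (the normalised reads averaged over the libraries) and the fold change. They were computed with 3 OHT and 3 EtOH libraries weighted equally. The deposited folds are pulled towards 0 by a prior. The gap between the groups is therefore understated where the standard error is wide. In bulk RNA a change in the number of cells that use a gene and a change in RNA per cell cannot be told apart.

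The aspartic protease gene Ctsd, whose product is a main endopeptidase of the lysosome, was the most abundant member, with an implied 69166 normalised reads in OHT and 13654 in EtOH. Its log2 fold change in the authors' deposited table was 2.34 ± 0.19 (SE, adjusted p = 2.26e-34), or 5.07-fold with a 95% interval of 3.94 to 6.52. Only 0.109% of the genes tested had a higher base mean. Ctsd made up 46.3% of the summed reads of the 10 genes in OHT and 36.6% in EtOH.

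Ctsa encodes a serine carboxypeptidase that also protects beta-galactosidase and neuraminidase from breakdown in the lysosome. The implied level of Ctsa was 8686 normalised reads in OHT and 3494 in EtOH. The log2 fold change of 1.31 ± 0.14 (SE, adjusted p = 1.58e-19) per the authors' deposited table had the narrowest error of the 10, so this change of moderate size is also the most precisely measured one. Its interval ran from 2.06-fold to 3.00-fold.

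The other 8 members are papain-like cysteine proteases, of which 7 rose. Ctss, an endopeptidase of antigen-presenting cells that cuts the invariant chain of MHC class II and stays active at neutral pH, had the largest deposited fold of the 10, though not with the prior undone. It stood at 22345 normalised reads in OHT and 2929 in EtOH. The log2 fold change in the authors' deposited table was 2.93 ± 0.29 (SE, adjusted p = 5.99e-23), or 7.63-fold with an interval of 5.17 to 11.3. Ctss held 14.9% of the members' summed reads in OHT and 7.85% in EtOH.

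Ctsh, an aminopeptidase, was less abundant, with 3731 normalised reads in OHT and 706 in EtOH, and had a fold close to that of Ctsd. In the authors' deposited table its log2 fold change was 2.40 ± 0.20 (SE, adjusted p = 7.18e-32). Ctsb, which acts as an endopeptidase and as a peptidyl-dipeptidase, had 30202 normalised reads in OHT and 7219 in EtOH, next to Ctsd in OHT and just under Ctsz in EtOH. Its log2 fold change of 2.06 ± 0.48 (SE, adjusted p = 7.49e-05) per the authors' deposited table carried an interval of 2.18-fold to 8.04-fold. The call holds for Ctsb, but the size of its change is known much less well than for Ctsd or Ctsh.

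Ctsl, a broad endopeptidase of most cells, stood at 4933 normalised reads in OHT and 1626 in EtOH. It had the weakest call of the 9, at 1.60 ± 0.58 on the log2 scale (SE, adjusted p = 0.0140) per the authors' deposited table, and it passed at 0.05 and not at 0.01. Ctsk, the collagen-degrading cathepsin by which osteoclasts resorb bone, was scarce, at 332 normalised reads in OHT and 44.0 in EtOH. Its log2 fold change of 2.92 ± 0.74 (SE, adjusted p = 2.99e-04) per the authors' deposited table was almost the same as that of Ctss, but the interval of 2.77-fold to 20.7-fold was far wider. With the prior undone approximately, a choice made after seeing the data, Ctsk stood at 366 in OHT and 10.2 in EtOH, and its log2 fold change was 5.16. The prior used was the narrowest that the formula allows, and the error of Ctsk lies near its limit. A wider prior would give Ctsk a smaller fold, so these values rest on that choice.

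Ctsf and Ctso, both little-studied cysteine proteases, were scarce as well. Ctsf, the only member with a base mean under 100, stood at 120 normalised reads in OHT and 43.4 in EtOH, and its log2 fold change in the authors' deposited table was 1.47 ± 0.39 (SE, adjusted p = 5.43e-04). Ctso stood at 455 in OHT and 205 in EtOH, with 1.15 ± 0.26 (SE, adjusted p = 4.68e-05) per the authors' deposited table.

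Ctsz, which removes single amino acids from the C-terminus, had an implied 9529 normalised reads in OHT and 7394 in EtOH. Its log2 fold change of 0.37 ± 0.23 (SE, adjusted p = 0.176) per the authors' deposited table did not pass, and the interval of 0.947-fold to 1.75-fold leaves room for no change and for a rise of up to that size. Ctsz was among the more abundant messages, and only 2.38% of the tested genes had a higher base mean. Its share of the members' summed reads was 6.37% in OHT and 19.8% in EtOH.

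**Figure D2:**
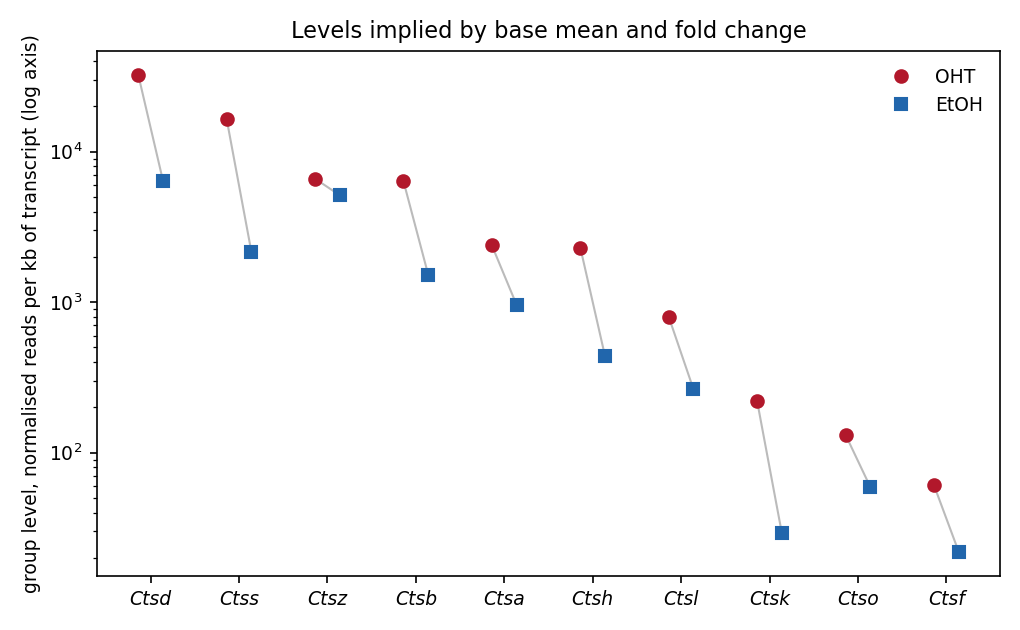
Level of each cathepsin gene in OHT (circles) and EtOH (squares), as normalised reads per kb of its longest principal transcript on a log axis, computed from the base mean and fold change in the authors' deposited table, with no values per sample. Ctsd leads both groups (32518 in OHT, 6419 in EtOH), and Ctsz has the shortest line between its points.

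For levels between genes, reads were divided by the length of the longest principal transcript in GENCODE M21. That length was 6168 bases for Ctsl, against 6489 for all its exons. A shorter transcript of Ctsl was not tried and would raise its value. The level per kb of Ctsl and its place in the order therefore rest on this choice. On this scale Ctsd was highest in both groups, at 32518 normalised reads per kb in OHT and 6419 in EtOH. Ctss came next in OHT with 16491 per kb, and had 2161 in EtOH. Ctsz had 6613 per kb in OHT and 5131 in EtOH, so it stood below Ctss in OHT and above it in EtOH. Ctsb had 6368 per kb in OHT and 1522 in EtOH, close to Ctsz in OHT and well under it in EtOH. Below them lay Ctsa (2382 in OHT, 958 in EtOH), Ctsh (2307 in OHT, 437 in EtOH) and Ctsl (800 in OHT, 264 in EtOH). Ctsk, Ctso and Ctsf were the lowest in both groups, with 220, 131 and 60.8 per kb in OHT and 29.1, 59.1 and 21.9 per kb in EtOH, so Ctsk lay above Ctso in OHT and below it in EtOH. With the length of all annotated exons in place of the principal transcript, Ctsh and Ctsl stood closer together in OHT, at 829 and 760 per kb, and their order was reversed in EtOH, at 157 and 251 per kb.

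Summed over the 10 genes, the implied level was 149500 normalised reads in OHT and 37315 in EtOH, a ratio of 4.01. Together they held 0.460% of all normalised reads in the table. The sum is mostly that of Ctsd, Ctsb and Ctss, and it describes the bulk of cathepsin message rather than each gene.

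**Figure D3:**
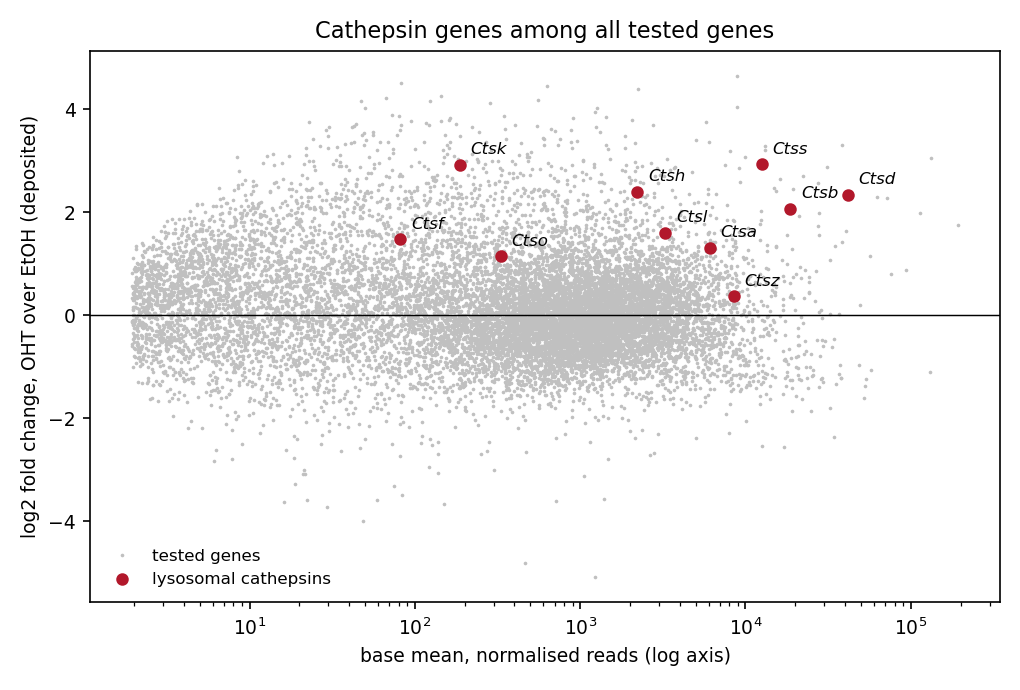
Log2 fold change (OHT over EtOH) against base mean (normalised reads, log axis) in the authors' deposited table for all 13814 tested genes (grey) and the 10 cathepsin genes (red). All 10 lie above 0, over a range of base mean from 81.9 (Ctsf) to 41410 (Ctsd).

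The order of the deposited folds was Ctss, Ctsk, Ctsh, Ctsd, Ctsb, Ctsl, Ctsf, Ctsa, Ctso and Ctsz, from high to low. With the prior undone approximately, at the narrowest prior the formula allows, Ctsk (log2 fold change 5.16 ± 1.31, SE) stood above Ctss (3.05 ± 0.30). The 95% intervals overlapped in all 9 neighbouring pairs of the deposited order, and overlap alone does not show that folds are equal. Among all 45 pairs the intervals overlapped in 32 and were apart in 13. Ctss lay apart from Ctsf, Ctsa, Ctso and Ctsz, and Ctsd and Ctsh each lay apart from Ctsa, Ctso and Ctsz. Ctsz was also apart from Ctsk, Ctsb and Ctsa, and its interval overlapped those of Ctsl, Ctsf and Ctso. These intervals treat the genes as independent, and the pairs were not tested further. In the ranking of all 13814 folds Ctss stood at place 149, Ctsk at 156, Ctsd at 380, Ctsa at 1523 and Ctsz at 5010.

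Standard errors differed widely among the members. The median standard error of the 9888 tested genes at a base mean of 100 or more was 0.18 on the log2 scale, and 9 of the 10 members exceeded it. Ctsk and Ctsl were above 0.5, as were 1.79% of those 9888 genes (177 genes, of which 164 had a fold above 0), and Ctsb was just under it. If read as variation between equally deep libraries of a group, with the prior undone, the errors correspond to a coefficient of variation of 11.9% for Ctsa, 16.0% for Ctsd, 16.8% for Ctsh, 46.3% for Ctsb, 60.5% for Ctsl and 109% for Ctsk. A wider prior than the one used would lower the value for Ctsk. The authors' deposited table leaves 51 genes with a fold but without a p-value, and none of the 10 was among them.

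**Figure D4:**
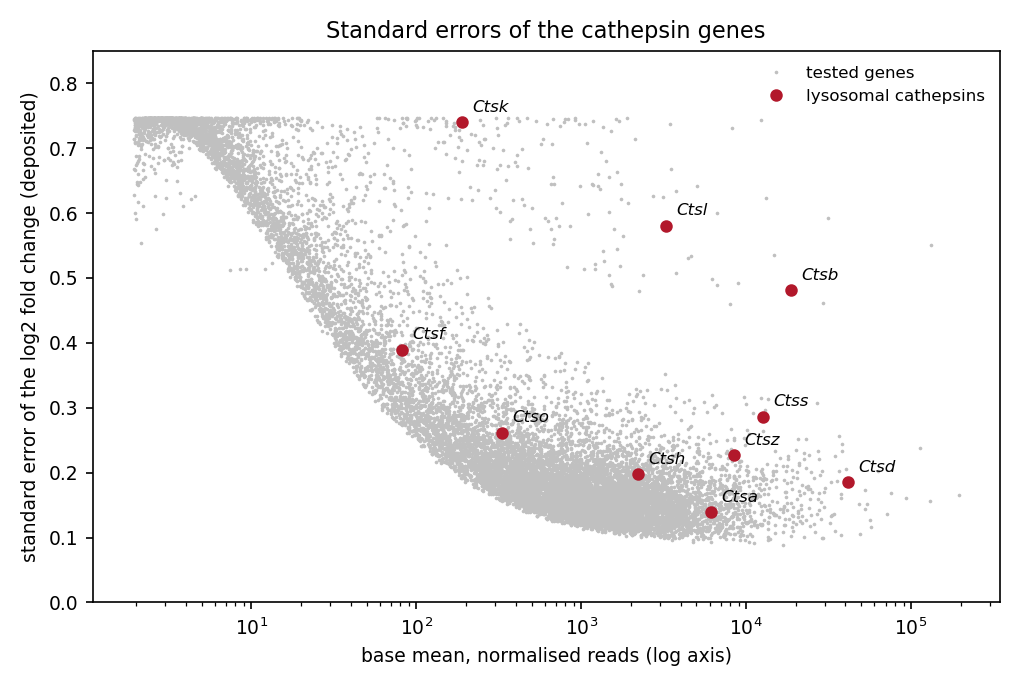
Standard error of the log2 fold change against base mean (normalised reads, log axis) in the authors' deposited table for all 13814 tested genes (grey) and the 10 cathepsin genes (red). Ctsk (0.74), Ctsl (0.58) and Ctsb (0.48) stand above most genes of their level, while Ctsa (0.14) and Ctsh (0.20) lie in the main band.

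Most listed monocyte and macrophage markers rose in OHT, as most of the cathepsins did. Of 22 monocyte and macrophage genes listed, 20 were tested, 17 rose and 1 fell, with a median log2 fold change of 2.36. The 1 that fell was Ly6c2, named after its value was seen, at -0.57 ± 0.17 in the authors' deposited table. Over all tested genes 25.5% rose and 23.4% fell. The summed implied level of the listed markers was 308963 normalised reads in OHT and 64964 in EtOH, and Timd4 was at 0. Several had errors as wide as those of Ctsb, Ctsl and Ctsk: Lyz2, which encodes lysozyme and is the most abundant of the list, had 3.05 ± 0.55 (SE) in the authors' deposited table, whereas Emr1, a macrophage surface receptor, had 2.85 ± 0.19. For the scarce complement gene C1qa, chosen after its value was seen, whole reads per library could be recovered from its base mean. It had 8, 1 and 18 reads (4.26, 0.988 and 25.8 normalised reads) in the 3 libraries on the side where the authors' fold is above 0, and 0 reads in each of the other 3. The scarcer Vsig4, likewise chosen, had 3, 1 and 0 reads (1.60, 0.988 and 0 normalised reads) on the first side in the same order. It had 0 reads in each of the others. The libraries on the first side differed widely for C1qa. Vsig4 had its highest count in the deepest library (size factor 1.88), and its reads are too few to tell the libraries apart. The recovered libraries cannot be matched to sample names. Whether such cells or a single library contributed to the cathepsin folds was not tested.

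All 16 tested genes of the neutrophil list rose, beside 25.5% of all genes tested (median 2.57, summed level 830948 in OHT and 203436 in EtOH). By score they were led by the integrin gene Itgam, at 2.44 ± 0.12 (SE) in the authors' deposited table. The most abundant was the alarmin gene S100a9 (1.75 ± 0.17 in the authors' deposited table). The list held no gene of the neutrophil primary granules, so its rise does not extend to all neutrophil genes. Mpo (-2.37 ± 0.23), Prtn3 (-1.79 ± 0.19) and Elane (-1.60 ± 0.17), named after their values were seen, fell in that table. Further primary granule genes were not listed. For osteoclasts, the cells that Ctsk is best known from, 7 of 11 listed genes were tested and 4 rose (summed level 17973 in OHT and 3157 in EtOH). Mmp9, which is also on the neutrophil list, led these by score and level, with 3.37 ± 0.22 (SE) in the authors' deposited table. It held 10962 of the summed level in OHT. The others that rose were Atp6v0d2 (3.34 ± 0.71), which is also on the proton pump list, Nfatc1 (0.89 ± 0.16) and Tnfrsf11a (1.36 ± 0.43). Dcstamp (0.93 ± 0.66), Acp5 (0.34 ± 0.35) and Car2 (-0.15 ± 0.39) had no call in the authors' deposited table. All of these were named after their values were seen, and a part of such cells in the Ctsk fold was not tested. The calcitonin receptor gene Calcr was at 0. Oscar had 1, 1 and 3 recovered reads on the side of positive folds and 2, 1 and 0 on the other, too few to show a difference.

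Markers of other cell types were listed as well. Their counts stand beside 25.5% of all tested genes that rose and 23.4% that fell. Among eosinophil, basophil and mast cell genes 1 of 12 tested rose, the ribonuclease gene Ear2, uncertain because of near-identical copies elsewhere (3.47 ± 0.45 in the authors' deposited table). Cpa3, the most abundant of them, had 0.64 ± 0.62 (SE, adjusted p = 0.411) per the authors' deposited table. Their summed level was 35766 in OHT and 23757 in EtOH, and 5 more had no p-value. Of 12 erythroid and megakaryocyte genes tested 2 rose, and the 6 listed globin genes were at 0 (summed level 3653 in OHT and 999 in EtOH). Vwf had the largest score there (3.82 ± 0.20) and Itga2b the highest base mean (1.19 ± 0.74, adjusted p = 0.175) per the authors' deposited table. Of 8 lymphoid and NK genes 3 rose and 2 fell (summed level 2184 in OHT and 1609 in EtOH), with Cd3e, Cd8a, Ms4a1 and Pax5 at 0. The T cell kinase gene Lck fell by 2.49 ± 0.41 in the authors' deposited table, and Gzmb had 0.64 ± 0.64 (adjusted p = 0.423). Of 6 stromal and endothelial genes 3 rose (summed level 2268 in OHT and 1639 in EtOH), with Dcn and Lum at 0, led by the collagen gene Col5a1 (3.78 ± 0.36 in the authors' deposited table). Pecam1, their most abundant gene, had 0.24 ± 0.57 (adjusted p = 0.761) per the authors' deposited table. Their part in the cathepsin folds was not tested.

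Other cathepsin genes did not all move the same way. The dipeptidyl peptidase gene Ctsc, whose product activates granule proteases, rose by 1.41 ± 0.18 (SE, adjusted p = 1.72e-13) per the authors' deposited table, within the range of the lysosomal members. Ctse, an aspartic protease of endosomes, rose by 1.80 ± 0.48 (SE, adjusted p = 5.53e-04) per the authors' deposited table. Ctsg, a serine protease of neutrophil granules, fell by 2.56 ± 0.12 (SE, adjusted p = 1.36e-99) per the authors' deposited table, to 4955 normalised reads in OHT, against 29177 in EtOH. Ctsw of cytotoxic lymphocytes had 1.11 ± 0.74 (SE, adjusted p = 0.212) per the authors' deposited table at a base mean of 7.83. The 8 listed members of the placental cathepsin cluster were at 0, and Ctsll3 had 1 recovered read.

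Of 15 inhibitor genes tested 6 rose and 0 fell, with a median log2 fold change of 0.94. Over all tested genes 25.5% rose and 23.4% fell, and the difference was not tested. Among the stefins, which block cysteine cathepsins in the cytosol, Cstb rose by 1.08 ± 0.21 (SE, adjusted p = 9.96e-07) per the authors' deposited table. Stfa3 (2.74 ± 0.31), Stfa2 (2.09 ± 0.50) and Stfa2l1 (1.55 ± 0.29) rose and Stfa1 had 0.36 ± 0.35 (adjusted p = 0.417) per the authors' deposited table, all from a cluster of near-identical copies and therefore uncertain. Cst3, the secreted cystatin C, rose by 0.39 ± 0.13 (SE, adjusted p = 0.00712) per the authors' deposited table, a small change at 9917 normalised reads in OHT and 7582 in EtOH. Cst7, cystatin F, had 0.09 ± 0.64 (SE, adjusted p = 0.920) per the authors' deposited table, so its direction is unknown, and the scarce Cst6 had 0.37 ± 0.72 (adjusted p = 0.699). Serpins act mainly on serine proteases such as cathepsin G. Serpinb6a, which has close copies in the mouse, rose by 1.26 ± 0.32 in the authors' deposited table, while the abundant Serpinb1a had 0.10 ± 0.12 (adjusted p = 0.513). Ctla2a, Ctla2b, Serpina3g, Serpinb6b and Serpinb9 had log2 fold changes from 0.42 to 1.26 and did not pass.

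Of 16 genes for sorting and processing of lysosomal enzymes 7 rose and 0 fell, with a median of 0.27. The shares over all tested genes were 25.5% and 23.4%, and the difference was not tested. The beta-glucocerebrosidase carrier gene Scarb2 rose by 1.25 ± 0.16, and the sorting receptor genes Sort1 and Sorl1 by 1.57 ± 0.24 and 1.46 ± 0.23, in the authors' deposited table. Gga2, an adaptor of mannose 6-phosphate receptors, had -0.37 ± 0.17 (SE, adjusted p = 0.0661) per the authors' deposited table. Legumain, Lgmn, which cuts cathepsin precursors and chains and was chosen after its value was seen, rose by 2.20 ± 0.68 in the authors' deposited table, also with a wide error. The mannose 6-phosphate receptor gene M6pr, likewise chosen after its value was seen, had -0.05 ± 0.12 in the authors' deposited table.

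Of 37 genes for lysosomal hydrolases outside the cathepsins 23 rose and 1 fell, with a median log2 fold change of 0.54 beside 1.83 for the cathepsins. The difference between the lists was not tested. Among all tested genes 25.5% rose and 23.4% fell. Man2b1 (1.46 ± 0.12), an alpha-mannosidase, and Ppt1 (1.34 ± 0.12), which removes palmitate from proteins, were among the highest by score in the authors' deposited table. Arsa, which acts on sulphatides, fell by 0.30 ± 0.13 (SE, adjusted p = 0.0369) per the authors' deposited table. Among 21 membrane and activator genes 18 rose and 1 fell (median 0.88), with the saposin precursor Psap at 2.27 ± 0.14, Cd68 at 2.32 ± 0.16, the cholesterol transporter Npc1 at 1.65 ± 0.12 and Laptm4b at -0.78 ± 0.19 in the authors' deposited table. The vacuolar proton pump acidifies the lysosome, and of its 17 tested genes 13 rose and 0 fell (median 0.56). Those that rose include Atp6v0a1 (2.04 ± 0.22), Tcirg1 (1.08 ± 0.18) and Atp6ap1 (0.78 ± 0.11) in the authors' deposited table, where Atp6v1f stood at -0.01 ± 0.14.

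**Figure D5:**
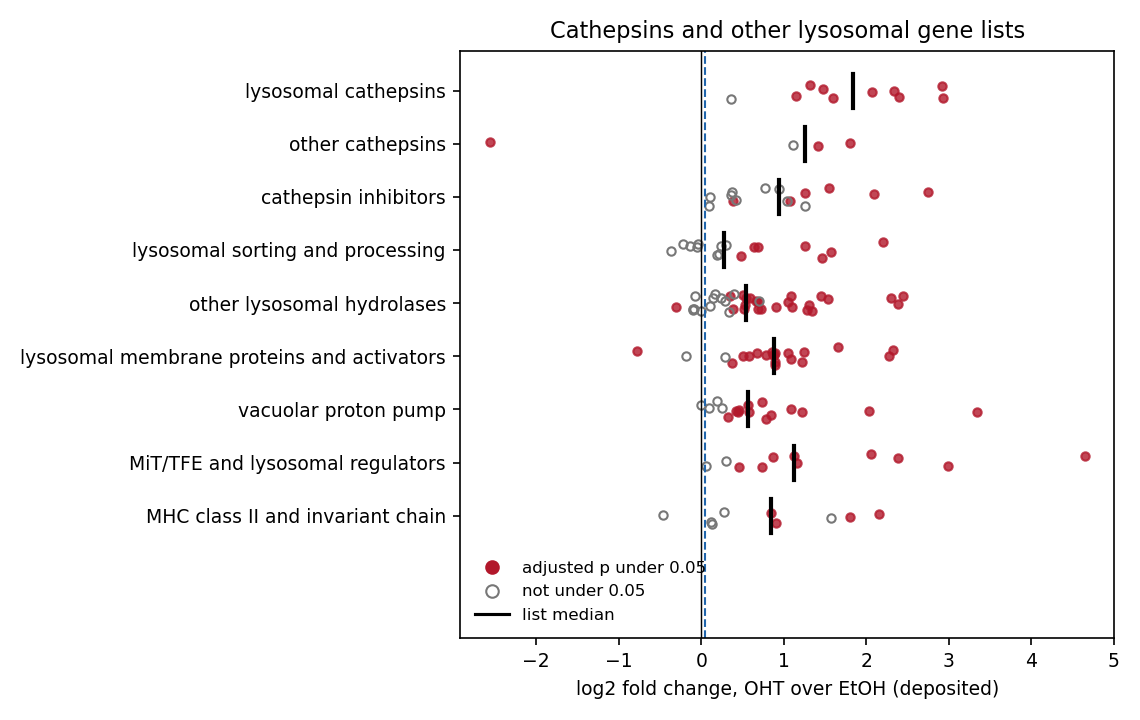
Log2 fold change (OHT over EtOH, from the authors' deposited table) of each tested gene in the cathepsin set and in 8 related lists; filled red circles have an adjusted p-value under 0.05, open grey circles do not, black bars mark list medians and the dashed line the median of all tested genes (0.05). The cathepsin median is 1.83 and that of other hydrolases 0.54, and the filled point at -2.56 is Ctsg.

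Of 11 MiT/TFE genes and regulators of the lysosome 9 rose and 0 fell (median 1.12), beside 25.5% and 23.4% of all tested genes. The transcription factor genes Mitf (2.38 ± 0.30), Tfeb (1.16 ± 0.21) and Tfe3 (1.12 ± 0.15) rose, and Tfec stood at 0.05 ± 0.24 (adjusted p = 0.873), per the authors' deposited table. Gpnmb, a lysosomal glycoprotein and a known target of these factors, rose by 4.65 ± 0.49, and the folliculin partners Fnip2 and Fnip1 by 2.05 ± 0.21 and 0.87 ± 0.11, in the authors' deposited table. Flcn itself (0.46 ± 0.16) and the Rag GTPase genes Rragc (0.74 ± 0.12) and Rragd (2.99 ± 0.57), through which nutrient signals reach TFEB, rose as well, while Zkscan3, described as a repressor of lysosomal genes, had 0.30 ± 0.13 (adjusted p = 0.0502), per the authors' deposited table.

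For the antigen pathway that Ctss serves, 4 of 9 genes tested rose and 0 fell (median 0.85). The shares over all tested genes were 25.5% and 23.4%, and the difference was not tested. The invariant chain gene Cd74 rose by 2.15 ± 0.66 (SE, adjusted p = 0.00330) per the authors' deposited table. The peptide-loading genes H2-DMa (0.85 ± 0.17) and H2-DMb2 (0.91 ± 0.31) rose and H2-Ob had -0.47 ± 0.63 (adjusted p = 0.567) per the authors' deposited table, where H2-Aa and H2-Ab1 have no p-value. H2-DMb1, chosen after its value was seen, had 0.28 ± 0.27 (adjusted p = 0.408) per the authors' deposited table. Its base mean was 1106, against 86.6 for H2-DMb2.

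Ctsk and Ctss lie next to each other on chromosome 3 in GRCm38, Ctsk at chr3:95499256-95509362 (ENSMUSG00000028111.4) and Ctss at chr3:95526786-95556403 (ENSMUSG00000038642.10), both protein coding on the plus strand. Their flanking protein-coding genes had smaller folds or no reads. Arnt, the next gene before Ctsk, rose by 0.49 ± 0.12 (SE, adjusted p = 1.06e-04) per the authors' deposited table, Hormad1 after Ctss and 4930558C23Rik beyond Arnt were at 0, and Golph3l had 0.04 ± 0.15 (SE, adjusted p = 0.845). The other members, all protein coding, were spread over the genome. On the plus strand of GRCm38 lie Ctsa (chr2:164832873-164841032), Ctso (chr3:81932601-81956725), Ctsh (chr9:90054152-90076089), Ctsb (chr14:63122462-63145923) and Ctsf (chr19:4855130-4860918). On the minus strand lie Ctsz (chr2:174427493-174439039), Ctsd (chr7:142375911-142388038) and Ctsl (chr13:64359337-64370890).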

How the data were processed

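TruSeq libraries were made from column-purified RNA, per the labels' protocols. The submitters' processing notes name the build mm10 and, as tools, DESeq, DESeq2, HTSeq 0.9.1, STAR 2.7.2b and Trimmomatic 0.38.0. The sources used here give no annotation, counting options or strand setting. The authors deposited 1 comparison table, which gives each gene's base mean (the signal of a gene in normalised reads, as a mean of the libraries), log2 fold change, standard error of that change, Wald score, p-value and adjusted p-value. Dividing fold by error gave the deposited score to within 7.56e-08, and adjusting the p-values of 13814 genes by Benjamini-Hochberg gave the deposited adjusted p-value to within 2.33e-07. No test of samples was made here: calls use the authors' adjusted p-value under 0.05, and the labels do not say whether replicates are separate cultures, so p-values may measure technical spread. With 3 libraries a group the precision is that of the deposited standard errors, and 95% intervals come from them.

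The members and gene lists were chosen with earlier results of these data known. Named genes are all members, all tested genes of the lists of other cathepsins, inhibitors and MiT/TFE regulators, the 3 highest and the lowest by score in the other lysosomal lists, the most abundant and the one of largest score in each marker list, and the neighbours of Ctsk and Ctss; a gene that this rule names is not reported here. Of the listed names 6 matched no row (Csta, Csta2, a second name of Scarb2, Ly6g, Ahsp and Trac). Whole reads of genes with a base mean up to 6 were solved within 5e-09, and each printed gene had 1 solution. Transcript lengths were taken from GENCODE M21 (GRCm38, the same assembly as mm10) and promoters from RefSeq. Calculations used Python 3.11.15, numpy 2.4.6, pandas 2.3.3 and scipy 1.17.1, and were tested on simulated data.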

Additional observations from a re-analysis of the deposited data

How the results depend on the processing

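The count of 9 members higher and 0 lower in OHT gave 8 and 0 at an adjusted p-value under 0.01 (Ctsl lost), 9 and 0 when p-values were adjusted over every gene that has one, 8 and 0 when adjusted over genes at a base mean of 100 or more (Ctsf not tested), 9 and 0 with a log2 fold change of at least 1, and 7 and 0 without the members whose standard error exceeds 0.5. With a Bonferroni correction it was 4 and 0 (Ctsa, Ctsd, Ctsh and Ctss), a call made for 11.1% of tested genes. The main call of a rise was made for 25.5% of tested genes, and that with a log2 fold change of at least 1 for 13.6%. For the other settings the share over all genes was not computed, so those counts have no share beside them. The median log2 fold change of 1.83 was 1.77 without the members of wide error and 1.85 after centring on the median of genes at that depth. It was 2.15 with the prior undone, taking an SD of 1.49, or 2 times the largest standard error (0.747), a choice made after seeing the data because genes with 1 read have a smaller error (0.482). The planned form with the largest error itself as the SD was not run for that reason. An SD of 1.49 is the smallest that the formula allows and so gives the largest correction, above all for Ctsk. At that SD the order of the folds changed at the top: Ctsk (5.16) stood above Ctss (3.05). No paired analysis was possible because the table has no values per sample, and for the same reason leaving out replicates and a second count tool were not run.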
